A study of Homo sapiens with 2 samples.

Results

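The adhesion G protein-coupled receptors described here are 10 genes of the 20985 in the deposited expression table, taken by symbol: GPR110, GPR115, GPR116, GPR126, GPR56, GPR64, GPR124, GPR125, CELSR1 and CELSR2. All 10 were found. The choice was made with values of the same 2 libraries known, so the members' levels and ratios are a description and carry no test. The study compared HCC827 ZDR3, a gefitinib-resistant derivative, with its parental line HCC827, an established lung adenocarcinoma line that carries an activating mutation of EGFR. The derivative came from HCC827 cells kept in gefitinib, an inhibitor of the EGFR kinase, at 10 nM for 1 month and then at a dose raised 3-fold a month up to 1 µM. Colonies were picked from these cells, and the labels do not say whether ZDR3 is a single clone or whether the drug was present at harvest. Both groups derive from this EGFR-mutant line, and the mutation was not checked in either library. Each group is 1 library of polyadenylated RNA.

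Adhesion receptors form a family of membrane proteins with a long extracellular part, a membrane-near domain at which many of them cut themselves, and the serpentine core of a G protein-coupled receptor. The stretch that the cut exposes can act as a tethered agonist, and the extracellular part binds matrix proteins or proteins on neighbouring cells. In lung, GPR116 is known from alveolar type 2 cells, where it restrains surfactant secretion, and from endothelium. CELSR1 orients epithelial cells within the plane of the tissue.

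The resistant library held 243549871 gene reads and the parental library 257192607. Levels are given in normalised reads, of which 1 unit stands for 138 reads in the resistant and 143 reads in the parental library, and they are not divided by gene length. Log2 ratios, written as resistant over parental, were taken on levels plus 1 unit, which understates the ratio of low genes, so the plain ratio is given as well with its exact 95% binomial interval. These intervals cover counting error only. With 1 library in each group the spread between cultures is unknown, no p-value is given, and each difference is one between these 2 libraries. A gene that reached a level of 1 in either library is called expressed, and 13777 were.

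The label of the cells was checked against markers. All 6 epithelial genes examined were expressed. In the resistant library 5 of them were lower by 2-fold or more, as were 9.68% of all expressed genes. The summed level of the 6 was 5609 in the resistant and 14105 in the parental library. Of 13 leukocyte markers 3 were expressed, with summed levels over the list of 2.81 and 4.46 in the resistant and parental library. These 3 were CD79A (1.025 resistant, 0.287 parental), CD14 (0.2035 resistant, 1.876 parental) and CSF1R (0.763 resistant, 1.827 parental). CD3E, CD3D, CD2, MS4A1 and FCGR3A had 0 reads in both. Of 9 endothelial markers with a row, 3 were expressed (summed levels 12.1 resistant and 20.4 parental). These 3 were EGFL7 (10.5 resistant, 17.55 parental), TIE1 (1.163 resistant, 0.336 parental) and ROBO4 (0.109 resistant, 1.575 parental). CDH5 was at 2 reads in the resistant and 3 in the parental library. Of 10 fibroblast and smooth muscle markers 4 were expressed (28.7 resistant and 52.5 parental), with COL3A1 at 0 reads in both. These 4 were MYH11 (15.76 resistant, 21.9 parental), TAGLN (6.598 resistant, 9.988 parental), ACTA2 (4.411 resistant, 11.07 parental) and COL1A1 (1.759 resistant, 9.155 parental). The lung factor NKX2-1 was at 9.33 in the resistant and 95.0 in the parental library, and the type 2 cell marker SFTPC had 0 reads in both. The part of these shifts in the receptors' values was not tested.

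GPR110, GPR56 and GPR115 stood far lower in the resistant library, 5 members differed by at most 1.39-fold in the lower direction, and GPR64 and GPR116 had higher values. At a threshold of 2-fold, 3 of 10 members were lower, where 9.68% of all expressed genes were, and 0 of 10 were higher, where 10.6% were. As a plain ratio GPR116 was past 2-fold as well. The members were chosen on this contrast, so nothing is read from these shares. The median log2 ratio of the members was -0.25, and -0.29 as plain ratios with GPR115 at its floor, against -0.03 over all expressed genes. All 10 passed the minimum level, but GPR110 and GPR115 passed through the parental library alone and GPR116 through the resistant library alone, so those 3 had to differ. In RNA from whole cultures, fewer cells that express a gene and less of its RNA in each cell cannot be told apart.

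The sequences just before the start sites show a feature that the choice of members did not use. RefSeq promoters (GRCh38.p14) were matched for 8 of the 10 members, and the 250 bases before each start were examined. CELSR1 and GPR124 are not analysed here in this respect. The promoters of the 3 members that were at least 2-fold lower, and that of GPR116, were poor in the dinucleotide CpG, with an observed over expected ratio under 0.5. Those of GPR64, GPR126, GPR125 and CELSR2 were not. The first 4 sequences below are the CpG-poor ones, the last 2 are CpG-rich ones for contrast, and capitals mark each CpG. GPR110 lies at chr6:47042333-47042582 on the minus strand, GPR115 at chr6:47698330-47698579 on the plus strand, GPR116 at chr6:46954940-46955189 on the minus strand and GPR56 at chr16:57619488-57619737 on the plus strand. GPR125 lies at chr4:22516067-22516316 and GPR64 at chrX:19122469-19122718, both on the minus strand. All are written 5′ to 3′ in the sense of the gene.
GPR110: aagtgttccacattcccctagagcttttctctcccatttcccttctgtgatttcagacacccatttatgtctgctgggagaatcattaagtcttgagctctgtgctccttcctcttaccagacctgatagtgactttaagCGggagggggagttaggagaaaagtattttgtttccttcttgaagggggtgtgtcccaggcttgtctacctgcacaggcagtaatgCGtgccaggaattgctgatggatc
GPR115: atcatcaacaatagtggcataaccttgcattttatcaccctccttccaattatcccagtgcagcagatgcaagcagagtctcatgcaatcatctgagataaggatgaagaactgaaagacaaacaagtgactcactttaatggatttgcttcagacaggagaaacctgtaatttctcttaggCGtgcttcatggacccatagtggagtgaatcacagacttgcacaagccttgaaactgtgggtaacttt
GPR116: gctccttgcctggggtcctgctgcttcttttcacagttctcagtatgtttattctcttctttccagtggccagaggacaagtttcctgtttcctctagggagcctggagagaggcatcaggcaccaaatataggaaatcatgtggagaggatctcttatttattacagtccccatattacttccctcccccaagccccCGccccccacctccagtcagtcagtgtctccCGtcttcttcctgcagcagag
GPR56: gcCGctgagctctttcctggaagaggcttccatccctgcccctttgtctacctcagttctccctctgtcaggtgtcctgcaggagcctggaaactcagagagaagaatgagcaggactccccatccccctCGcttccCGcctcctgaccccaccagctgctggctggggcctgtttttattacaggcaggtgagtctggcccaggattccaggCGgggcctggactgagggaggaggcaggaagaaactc
GPR125: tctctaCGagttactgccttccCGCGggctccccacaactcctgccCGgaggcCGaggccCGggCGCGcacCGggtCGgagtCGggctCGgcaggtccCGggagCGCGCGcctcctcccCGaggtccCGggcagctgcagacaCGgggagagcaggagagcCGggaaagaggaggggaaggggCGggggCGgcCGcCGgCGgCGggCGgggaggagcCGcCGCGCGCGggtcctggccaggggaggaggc
GPR64: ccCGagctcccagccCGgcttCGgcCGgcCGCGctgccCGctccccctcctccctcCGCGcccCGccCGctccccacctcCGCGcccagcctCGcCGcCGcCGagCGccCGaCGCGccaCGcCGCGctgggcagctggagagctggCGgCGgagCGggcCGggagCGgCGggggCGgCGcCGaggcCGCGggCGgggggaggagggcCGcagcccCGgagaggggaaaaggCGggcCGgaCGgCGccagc

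In these windows GPR110 held 2 CpG, GPR115 1, GPR116 2 and GPR56 4, while GPR125 held 32 and GPR64 42. The observed over expected ratio was 0.14 for GPR110, 0.091 for GPR115, 0.13 for GPR116 and 0.18 for GPR56. It was 0.86 for GPR125, 0.94 for GPR64, and 0.90 for both GPR126 and CELSR2. Of the 35116 promoters listed by RefSeq, which include those of genes not expressed here, 46.8% lay under 0.5. A share over the expressed genes would be the closer background, but that check is void because 79.1% of them had a promoter in the table, under a limit of 80%, so nothing is read from the members' share. GPR56 has 3 listed starts and GPR116 has 2, and every one of them was under 0.5, at 0.18 to 0.24 for GPR56 and at 0.13 and 0.47 for GPR116. Of the members with a CpG-poor window, GPR110, GPR115 and GPR56 had lower levels in the resistant library and GPR116 a higher one. A relation of CpG content to the levels was not tested.

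Letters of 3 motifs were sought on both strands of these windows. The Grainyhead motif AACCNGTT, found in 1.49% of all promoters, was in none of the 8 members' windows at any listed start. The E-box CACCTG, which ZEB factors can bind and which 17.5% of all promoters hold, occurred in the first and second GPR56 windows, 2 times each, and 1 time in that of GPR126. The AP-1 motif TGANTCA, held by 6.57% of all promoters, occurred 2 times in the window of GPR115, beginning 123 and 43 bases before the start, and 2 times in the third GPR56 window. The motifs do not overlap one another in these windows. A match describes letters only.

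GPR110 (ENSG00000153292), known in mice as a receptor of neurons for the lipid synaptamide, belongs with GPR115 and GPR116 to a tandem group on chromosome 6. It had 11 reads in the resistant library, a level of 0.0799, and 25424 reads in the parental library, a level of 178. The log2 ratio was -7.37, the 11th lowest of all expressed genes, and the plain ratio was 2226-fold lower with an interval of 1244 to 4460. The resistant value thus rests on a handful of reads, whereas the parental level per kilobase exceeded that of 67.0% of expressed genes.

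GPR115 (ENSG00000153294), the next receptor of the tandem group among expressed genes, had 0 reads in the resistant library and 403 reads in the parental library, a level of 2.82. Set against the 3 reads that a count of 0 allows, it was at least 129-fold lower. Its log2 ratio of -1.93 is held down by the added unit, and with 5 units added it was -0.65. The fourth gene of the group, GPR111, overlaps GPR115 on the same strand in the GENCODE 29 annotation and had 0 and 4 reads in the resistant and parental library.

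GPR116 (ENSG00000069122) went the other way from its neighbour. It had 156 reads in the resistant library and 63 reads in the parental library, levels of 1.13 and 0.441, with a log2 ratio of 0.57. The plain ratio of 2.57 had an interval of 1.91 to 3.50, and with 0.1 units added the log2 ratio was 1.19, past 2-fold. Per kilobase it exceeded only 3.47% of expressed genes in the resistant and 2.28% in the parental library. SFTPD, a surfactant protein reported as its ligand, had 6 reads in the resistant and 2 in the parental library, a ratio whose interval of 0.557 to 31.6 spans 1. Of 13 alveolar type 2 genes 7 were expressed. The lipid transporter ABCA3 (3.62) was higher by 2-fold or more, where 10.6% of all expressed genes were. Lower were 3, SLC34A2 (-5.22), NKX2-1 (-3.22) and NAPSA (-2.00), where 9.68% of all expressed genes were. SLC34A2 passed the minimum level through the parental library alone, so it could only come out lower. Nothing is read from these counts. LPCAT1 (0.47) and LAMP3 (-0.15) lay within 2-fold.

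**Figure D1:**
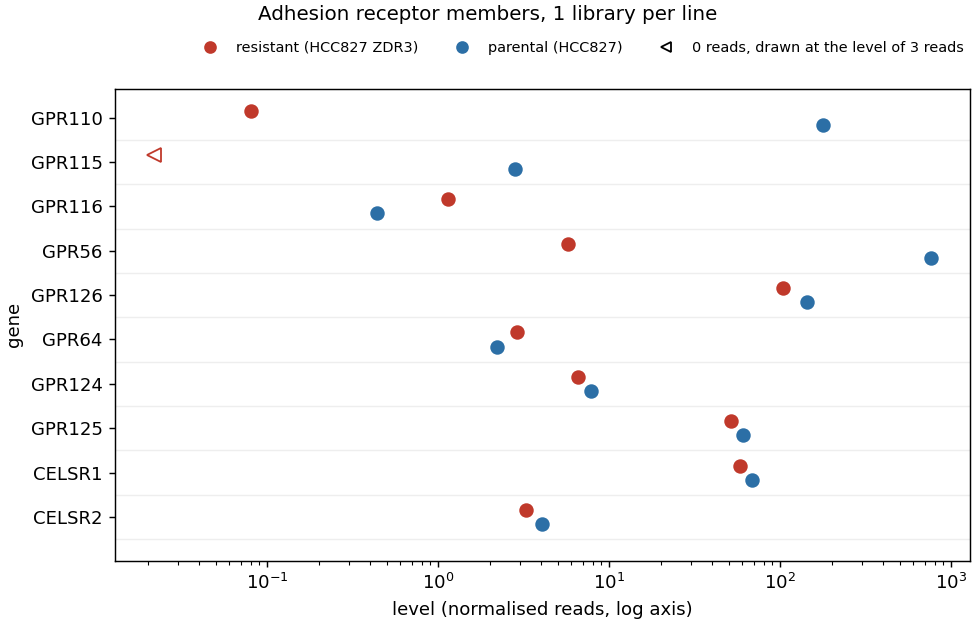
Level of each member in normalised reads (log axis) in the resistant and the parental library, 1 library each, with an open triangle for 0 reads drawn at the level of 3 reads. GPR110, GPR115 and GPR56 have their resistant points far to the left of the parental ones, while GPR116 has its resistant point at 1.13, to the right of its parental point at 0.441, and the points of the other 6 members lie close together.

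GPR56, GPR126 and GPR64 belong to 1 subfamily, and their values diverged. GPR56 (ENSG00000205336), which binds collagen III, signals to RHOA and is needed for the folding of the cerebral cortex, had 789 reads in the resistant and 108329 reads in the parental library. Its levels were 5.73 in the resistant and 758 in the parental library. The log2 ratio was -6.82, the 15th lowest of the expressed genes, and GPR56 was 132-fold lower with an interval of 123 to 142. Unlike GPR110 and GPR115, it stayed above the minimum level in the resistant library. A gene beside it in the same tandem group, GPR97, was low in both libraries. It had 2 reads in the resistant and 30 in the parental library, 14.4-fold lower with an interval of 3.67 to 125.

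GPR126 (ENSG00000112414), which drives myelination by Schwann cells and binds collagen IV, had 14217 reads in the resistant and 20461 in the parental library, levels of 103 and 143. The ratio of 0.721 had an interval of 0.706 to 0.737, and the log2 ratio was -0.47. GPR64 (ENSG00000173698), known for fluid transport in the male reproductive tract, had 395 reads in the resistant and 315 in the parental library, levels of 2.87 and 2.21. Its ratio was 1.30, with an interval of 1.12 to 1.51, and its log2 ratio 0.27.

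GPR124 and GPR125 are close relatives, and in zebrafish GPR125 modulates planar polarity. GPR124 (ENSG00000020181), which with RECK lets brain endothelium respond to WNT7 ligands, had 903 reads in the resistant and 1121 in the parental library, levels of 6.56 and 7.85. The ratio was 0.836 with an interval of 0.765 to 0.914. GPR125 (ENSG00000152990) had levels of 51.2 in the resistant and 60.9 in the parental library, a ratio of 0.841 with an interval of 0.815 to 0.868. Their log2 ratios were -0.23 and -0.25. GPR124 overlaps BRF2 on the opposite strand in the annotation, and since the strand setting of the counting is not given, reads of these genes may not be told apart. BRF2 had 2430 reads in the resistant and 2708 in the parental library.

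CELSR1 and CELSR2 are large receptors with cadherin repeats that set planar polarity in epithelia and, in mice, in ciliated cells of the brain. CELSR1 (ENSG00000075275) had 8042 reads in the resistant and 9713 in the parental library, levels of 58.4 and 68.0, and a ratio of 0.860 with an interval of 0.834 to 0.885. CELSR2 (ENSG00000143126) had 449 reads in the resistant and 581 in the parental library, levels of 3.26 and 4.07, and a ratio of 0.802 with an interval of 0.708 to 0.909. Their log2 ratios were -0.21 and -0.25. GPR124, GPR125, CELSR1 and CELSR2 thus lay between -0.25 and -0.21 on the log2 scale, inside a range within 0.5 of 0 that held 56.9% of all expressed genes.

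Because levels of different genes can be compared only per length, they were divided by the length of the longest annotated transcript. In the resistant library the order was GPR126 (14.7 units per kilobase), GPR125 (11.2), CELSR1 (5.13), GPR56 (1.35), GPR124 (1.05), GPR64 (0.496), CELSR2 (0.310), GPR116 (0.195), GPR110 (0.00876) and GPR115 at 0. In the parental library GPR56 (178) led, followed by GPR126 (20.4), GPR110 (19.5), GPR125 (13.3), CELSR1 (5.97), GPR124 (1.25), GPR115 (0.892), CELSR2 (0.386), GPR64 (0.381) and GPR116 (0.0759). CELSR2 and GPR64 were within counting error of each other in the parental library, with a ratio of 1.01 and an interval of 0.882 to 1.17, and the other neighbours with reads in both orders were further apart than that error. With merged exon lengths in place of the longest transcript, 8 of the 10 members kept their rank in both libraries, and GPR124 (0.929) and GPR56 (0.662) changed places in the resistant library. GPR56 thus exceeded 96.2% of expressed genes per kilobase in the parental library and 16.2% in the resistant library.

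**Figure D2:**
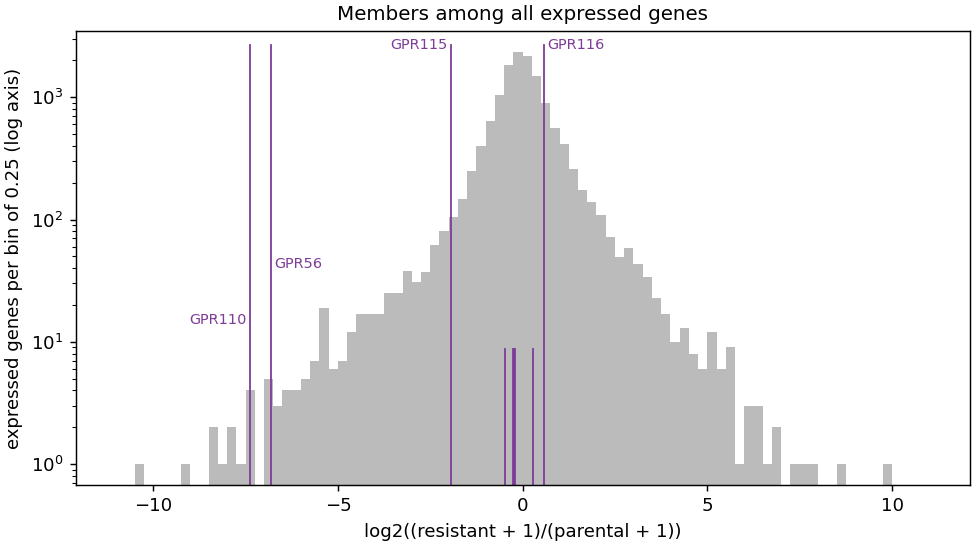
Number of expressed genes per bin of 0.25 of the log2 ratio, resistant over parental (log vertical axis), with a line for each member, 4 of them named. GPR110 and GPR56 lie in the sparse lower tail at -7.37 and -6.82, and 6 members lie within 0.5 of 0.

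The neighbours of the members on the chromosomes were set beside them, as the median log2 ratio of 20 expressed genes, 10 before and 10 after the receptor. Around GPR110 this median was 0.09, around GPR115 0.02 and around GPR56 0.03. The receptor minus the median of its neighbours was -7.46 for GPR110, -1.96 for GPR115 and -6.84 for GPR56 on the log2 scale. The window of GPR110 was mixed, with 5 of 20 neighbours lower by 2-fold or more, GPR115 among them, and 2 higher. Of all expressed genes 9.68% were lower and 10.6% higher by 2-fold or more. TNFRSF21 (-1.21) and CD2AP (-1.12) lie between GPR110 and GPR115. The windows of GPR110 and GPR115 each hold the other receptor and share most of their genes. With 5 neighbours on each side the median was -0.78 around GPR110, -0.57 around GPR115 and 0.19 around GPR56. Around GPR56, MMP15 (-2.24) alone of the 20 was lower by 2-fold or more and CCDC135 (1.24) alone was higher. CCDC135 passed the minimum level through the resistant library alone.

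GPR64 stood apart in another way. All 20 of its neighbours on the X chromosome, from CTPS2 to SMS, had log2 ratios above 0. In the resistant library 18 of them were higher by 2-fold or more, as were 10.6% of all expressed genes. Among the 18, SMPX and YY2 passed the minimum level through the resistant library alone, so they could only come out higher. The median of the 20 was 1.48 and their range 0.30 to 2.64, so that GPR64 at 0.27 lay 1.21 below the median. It was close to the lowest of them, SH3KBP1, and their order turned with the scale: as plain ratios GPR64 was at 0.38 and SH3KBP1 at 0.30 on the log2 scale. CELSR2 lay in a stretch of chromosome 1 with a median of -0.70, and GPR126, GPR124, GPR125 and CELSR1 differed from their neighbours' medians by 0.31 or less on the log2 scale.

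The rest of the family gives the setting for the members. The human family was listed as 33 genes, of which 32 had a row and 22 of these were not members. Of the 22, 10 were expressed. Their median log2 ratio was 0.14. By 2-fold or more, 4 were higher and 0 lower, where 10.6% and 9.68% of all expressed genes were. The 4 were the latrophilins LPHN2 (3.89) and LPHN3 (2.98), which bind teneurins and FLRT proteins across cell contacts, and the brain receptors BAI3 (1.87) and BAI2 (1.48). LPHN3 and BAI3 passed the minimum level through the resistant library alone, so they could only come out higher. These genes are what the choice of members left, so nothing is read from the counts. CELSR3 (-0.73), EMR2 (-0.30), CD97 (-0.29), LPHN1 (-0.12) and GPR98 (0.17) lay within 2-fold. CD97, a receptor for CD55 found on leukocytes and many epithelia, was at 224 in the resistant and 274 in the parental library. Per kilobase, at 70.4 in the resistant library, it stood above each of the 10 members, and at 85.8 in the parental library above each of them but GPR56. EMR2 and CD97 have near-identical ligand-binding domains, so their counts can be shared and are uncertain. The summed level of all 10 members was 233 in the resistant and 1226 in the parental library, of which GPR56 gave 758 and GPR110 178. That of the 22 others was 555 in the resistant and 453 in the parental library. These sums are not divided by length and the members were chosen on this contrast, so nothing is read from them.

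**Figure D3:**
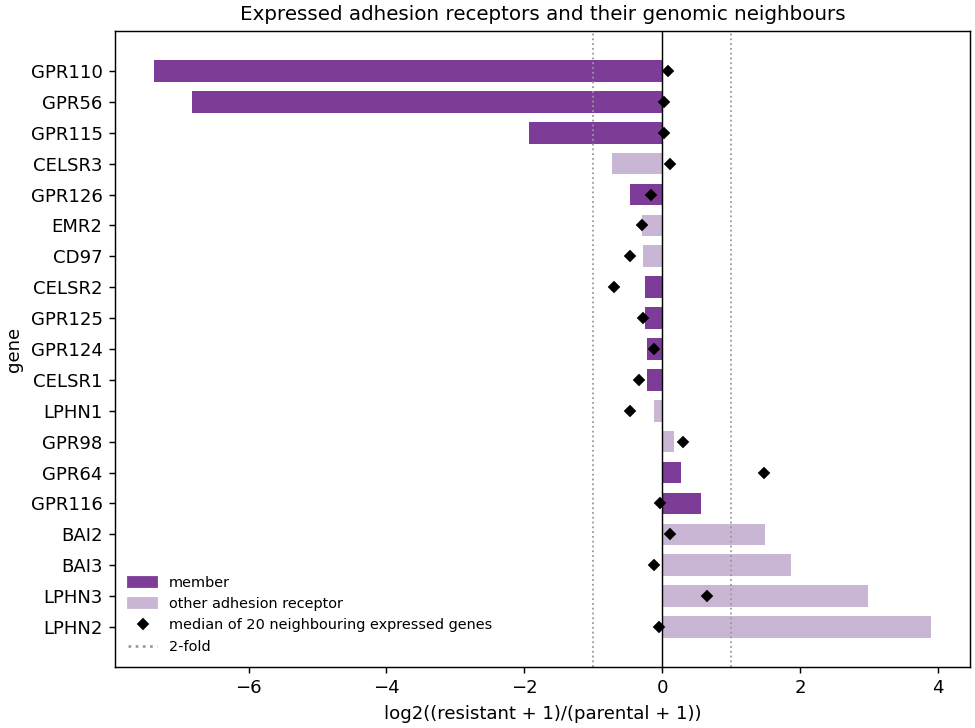
Log2 ratio, resistant over parental, of 19 of the 20 expressed adhesion receptors (dark bars members, light bars other receptors), with the median of the 20 neighbouring expressed genes as a diamond and dotted lines at 2-fold. The 3 longest bars to the left are members and the 4 longest to the right are not. GPR64 is the member that lies furthest below its diamond after GPR110, GPR56 and GPR115.

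Ligands and partners of the members came from a list of 13 genes. Of the 11 expressed, COL4A1 was higher by 2-fold or more, where 10.6% of all expressed genes were. TGM2 and WNT7A were lower by 2-fold or more, where 9.68% were. The median was 0.05, and nothing is read from these counts. For GPR56, the ligand TGM2, a transglutaminase, was at 548 in the resistant and 1249 in the parental library (-1.19), and the tetraspanins that associate with it, CD81 (0.46) and CD9 (-0.47), lay within 2-fold. Its ligand COL3A1 had 0 reads in both libraries. For GPR126, the collagen IV chain COL4A1 was at 165 in the resistant and 39.4 in the parental library, a ratio of 4.19 with an interval of 4.07 to 4.31, or 2.04 on the log2 scale. Its partner chain COL4A2 (0.55) and the prion protein PRNP (0.23) were under 2-fold. The laminin chain LAMA2 was at 3.01 in the resistant and 6.71 in the parental library. Its log2 ratio of -0.94 lay under 2-fold with 1 unit added, while its plain ratio was 2.23-fold lower with an interval of 1.99 to 2.51.

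For GPR124, WNT7B was at 89.4 in the resistant and 113 in the parental library (-0.33), and RECK (0.27) and the scaffold DLG1 (0.05) were within 2-fold. WNT7A had 2 reads in the resistant and 280 in the parental library, 135-fold lower with an interval of 37.0 to 1119, and a log2 ratio of -1.54. It passed the minimum level through the parental library alone, so it could only come out lower.

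**Figure D4:**
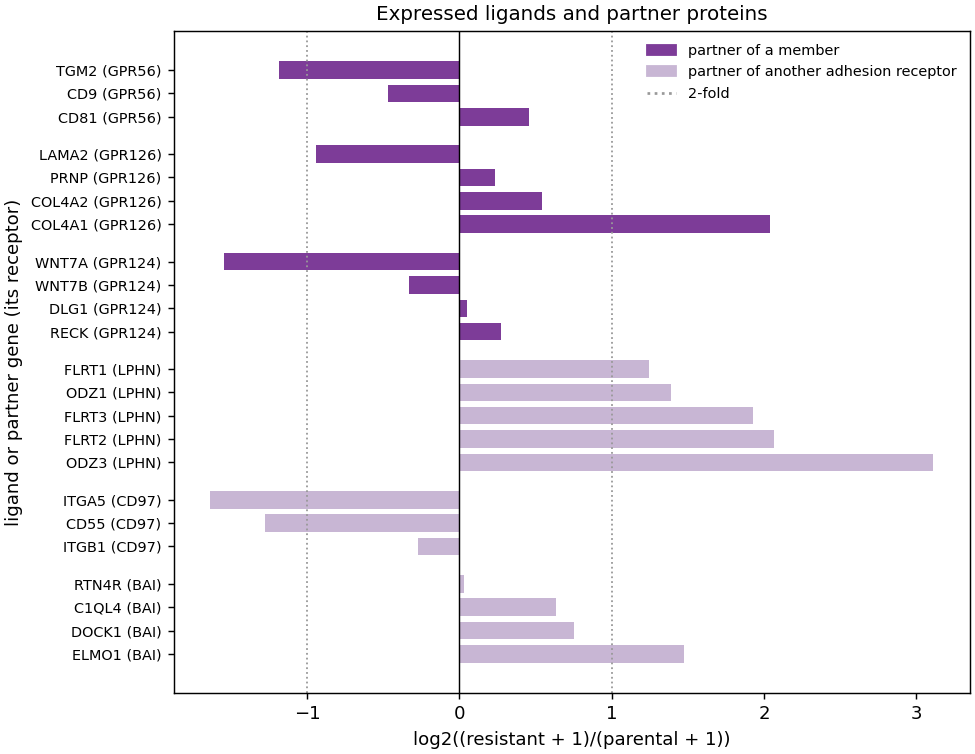
Log2 ratio, resistant over parental, of the 23 expressed ligands and partner proteins, grouped by receptor, with dotted lines at 2-fold. Among partners of members (dark bars) COL4A1 at 2.04 is the highest and WNT7A at -1.54 the lowest, and all 5 expressed partners of the latrophilins (light bars, LPHN) lie beyond 2-fold on the higher side. Of those partners, ODZ3 and FLRT2 passed the minimum level through the resistant library alone.

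Genes of planar polarity, the pathway of CELSR1, were near their parental levels for the most part. Of 21 expressed genes FJX1 (1.72) and PRICKLE1 (1.07) were higher by 2-fold or more and 0 were lower, where 20.3% of all expressed genes were 2-fold changed either way. The count of 0 holds with 1 unit added. As a plain ratio VANGL2, at 63 reads in the resistant and 245 in the parental library, was 3.75-fold lower with an interval of 2.83 to 5.02, although its log2 ratio was -0.90. VANGL1 (-0.88) and SCRIB (-0.69) had lower values and ANKRD6 (0.85) a higher one. The list's median was -0.11.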

How the data were processed

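Polyadenylated RNA of 1 resistant and 1 parental culture was read on an Illumina HiSeq, per the labels' protocols. The submitters' processing notes name TopHat. No source used here gives the TopHat version, genome build, counting tool or strand setting. The authors deposited 1 log2 value per gene and library, in a file whose name calls the values RPKM. Back-transformed, the values were whole multiples of 1 step per library (0.00727 resistant, 0.00700 parental), within 0.1 read for 100% of the 17049 and 17090 genes with 1 to 100000 reads. They are therefore reads times 1 factor and not divided by length. The lowest value equals 0.9 reads and was read as 0, for 3573 genes in the resistant and 3504 in the parental library. Ratios used a pseudocount of 1 and a minimum level of 1, and genes at 0 a floor of 3 reads (0.0218 resistant, 0.0210 parental). Reads carry no molecular identifiers, so they need not be separate molecules. No count model was used. The fold calls and intervals were tested on simulated data.

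Gene order and lengths came from GENCODE 29 by Ensembl identifier (97.8% of expressed genes had a position), which need not be the authors' annotation. Promoters came from the RefSeq table by symbol. The members and lists were chosen with earlier results of these data known. All members were named, every other expressed family gene, expressed partners of members, and up to 6 expressed genes with the largest log2 ratios of each other list, except that a few genes and 1 list are not reported here. GPR111, GPR97, BAI1, BRF2, single zero-count markers and neighbouring genes were named after their values were seen. With 2 libraries no likeness of pattern between genes can be measured. The alternatives tried were pseudocounts of 0.1 and 5, no minimum level and one of 5, levels centred on the median ratio, equal totals, 5 neighbours on each side and merged exon lengths. A plain ratio with 3 reads as floor was added after the data were seen. Python 3.11.15, pandas 2.3.3, numpy 2.4.6, scipy 1.17.1 and matplotlib 3.10.9 were used.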

Additional observations from a re-analysis of the deposited data

How the results depend on the processing

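The 3 members at least 2-fold lower stayed 3 with 0.1 units added, without a minimum level, under both other scalings and as plain ratios, and were 2 with 5 units added or a minimum level of 5, where GPR115 drops out. The count of members at least 2-fold higher was 0, and became 1, GPR116, with 0.1 units added and 1 as a plain ratio. The sign of each member's log2 ratio was the same in all 66 values computed under the alternatives, while GPR110 ranged from -11.12 to -5.17, GPR56 from -7.05 to -6.15, GPR115 from -7.02 to -0.65 and GPR116 from 0.17 to 1.36. Centring on the median ratio shifted log2 ratios by 0.034. With 5 units added the ligand and partner genes at least 2-fold higher were 3 and not 7, and the planar polarity genes changed 2-fold were 1 and not 2, since the added units shrink the ratios of low genes. With 0.1 units added and as plain ratios these were 8 and 3, and the ligand and partner genes at least 2-fold lower 5 and not 4, which adds C1QL4 as higher and VANGL2 and LAMA2 as lower. The median over the members of their neighbours' medians was -0.07, and -0.24 with 5 neighbours on each side. The cause was not tested. No paired analysis was possible because each group has 1 library, and leaving out a replicate was not possible for the same reason. Depth limits GPR110, GPR115 and GPR116, whose lower counts were 11, 0 and 63 reads.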

Other observations

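The latrophilins LPHN2 and LPHN3 and 5 of the 7 listed latrophilin ligands were higher by 2-fold or more. LPHN2, at 119 in the resistant and 7.09 in the parental library, was 16.8-fold higher with a counting interval of 15.8 to 17.9. LPHN3, at 8.89 in the resistant and 0.252 in the parental library, was 35.3-fold higher with an interval of 25.3 to 50.6, while LPHN1 was at 46.3 in the resistant and 50.6 in the parental library. All 5 expressed ligand genes of the list were at least 2-fold higher, where 10.6% of expressed genes were. They were the teneurin ODZ3 (8.20 resistant, 0.0630 parental, log2 ratio 3.11), FLRT2 (2.06), FLRT3 (1.93), ODZ1 (1.39) and FLRT1 (1.24). ODZ3 and FLRT2 passed the minimum level through the resistant library alone, as did LPHN3, so these genes had to come out higher. FLRT1, FLRT3 and ODZ1 passed it in both libraries. Nothing is read from the count of ligand genes. The other teneurins were under the minimum level, ODZ2 with 72 reads in the resistant and 4 in the parental library and ODZ4 with 18 in the resistant and 42 in the parental library, a ratio of 0.445 with an interval of 0.241 to 0.790. The median of the 20 expressed neighbours was -0.04 for LPHN2 and 0.65 for LPHN3. By 2-fold or more, 6 of the 20 around LPHN2 were higher and 2 lower, with a range of -1.89 to 4.2. Around LPHN3, 5 were higher and 1 lower, with a range of -3.34 to 6.8. Of all expressed genes 10.6% were higher and 9.68% lower. Some of these neighbours passed the minimum level through 1 library alone.

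BAI3 had 366 reads in the resistant and 0 in the parental library, at least 127-fold higher against a floor of 3 reads, and BAI2 was 2.86-fold higher (interval 2.76 to 2.97). The BAI partner ELMO1, which acts with DOCK1 in the uptake of dying cells, had 245 reads in the resistant and 0 in the parental library, at least 84.8-fold higher, and DOCK1 had a log2 ratio of 0.75. Of the 4 listed partners of CD97, 3 were expressed, and 2 of these were lower by 2-fold or more, where 9.68% of all expressed genes were. The 2 were CD55 at 204 in the resistant and 495 in the parental library (-1.28) and ITGA5 with a log2 ratio of -1.63. Nothing is read from so few genes. ITGB1 had a log2 ratio of -0.27 and THY1 0 reads in both libraries.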
